A study of Mus musculus with 2 samples.

Results

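The Dlk1-Meg3 locus is a cluster of imprinted genes on mouse chromosome 12, and 5 of its genes, Dlk1, Meg3, Rian, Mirg and Rtl1, were followed by name out of 23284 gene symbols counted. They were selected on their read counts in the 2 libraries described here, so their levels are given as a description, with no test. RNA-seq was done on GFP-positive cells that had been sorted from the dissociated pancreas of NGN3-EGFP embryos at stage e15.5, on a strain labelled mixed, C57BL6. EGFP here marks cells in which the reporter of NGN3 (Neurog3), the transcription factor that starts endocrine differentiation, is or has been active. The labels do not say how the reporter was built, how many embryos were pooled or which sex they were. There is 1 group with 2 libraries, replicates 1 and 2, of 12495143 and 12043734 counted reads, and no comparison between conditions can be made. The labels do not tie the libraries to different litters, and the spread between replicates may be technical.

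Imprinted genes are transcribed from the allele of 1 parent. In this cluster the protein-coding genes Dlk1, Rtl1 and Dio3 are known to be transcribed from the paternal chromosome. The noncoding RNAs Meg3, Rian and Mirg come from the maternal one and are made from the same strand, and methylation of a control region between Dlk1 and Meg3 sets which side is active. Dlk1 encodes a membrane protein with EGF-like repeats that is related to the ligands of Notch and is known from the embryonic pancreas, from beta cells and from mesenchyme. Meg3 is a nuclear long noncoding RNA, Rian is the host of box C/D small nucleolar RNAs (snoRNAs), and Mirg is the host of a large cluster of microRNAs (miRNAs). Rtl1 derives from a retrotransposon, and a transcript that runs against it holds miRNAs that are fully complementary to its mRNA. The counts do not separate the parental alleles, so no value below shows from which allele a transcript came.

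In the GENCODE annotation of GRCm38, a later build than the mm9 named for the files, the order along the chromosome is Dlk1, Meg3, Rtl1, Rian and Mirg. Rtl1 is on the minus strand and the others are on the plus strand. Counted from the annotated start of Dlk1, Meg3 begins at 88.2 kb, Rian at 151.1 kb and Mirg at 276.9 kb, and Dio3 closes the imprinted domain at 826.2 kb. RefSeq places 113 mature miRNAs from 61 hairpin genes between Dlk1 and Dio3. Mature miRNAs were not measured by these libraries, and the sequences are shown because the small RNA rows of the count files are read against them below. The first set lies opposite the Rtl1 exon. Each of the 11 mature miRNAs of RefSeq on the plus strand there was found as an exact reverse complement in the Rtl1 transcript, and 1 arm of 5 hairpins is printed 5′ to 3′ with the seed, bases 2 to 8, in capitals.
mmu-miR-431-5p: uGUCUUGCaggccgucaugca
mmu-miR-433-3p: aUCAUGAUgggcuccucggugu
mmu-miR-127-3p: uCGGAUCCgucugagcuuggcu
mmu-miR-434-3p: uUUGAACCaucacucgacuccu
mmu-miR-136-5p: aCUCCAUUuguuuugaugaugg

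The next set belongs to the miRNA rows with the most counted reads, between Meg3 and Rtl1 (miR-665, miR-540) and within Rian (miR-1188), again with the seed in capitals.
mmu-miR-665-3p: aCCAGGAGgcugaggucccu
mmu-miR-540-3p: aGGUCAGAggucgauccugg
mmu-miR-1188-5p: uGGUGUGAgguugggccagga

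The last set comes from the stretch from Mir379 to the end of Mirg and shows pairs with a shared seed. Of 104 seeds among the 113 mature miRNAs, 9 are held by more than 1 of them, so most of the cluster does not share its seed with another member. The first pair below is miR-379-5p with miR-1193-5p, and the others follow in the same way.
mmu-miR-379-5p: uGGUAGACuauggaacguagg
mmu-miR-1193-5p: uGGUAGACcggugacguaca
mmu-miR-379-3p: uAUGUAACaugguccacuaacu
mmu-miR-411-3p: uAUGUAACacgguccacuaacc
mmu-miR-494-5p: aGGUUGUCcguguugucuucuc
mmu-miR-410-5p: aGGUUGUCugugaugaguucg

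Levels are given as CPM, the reads of a gene per 1000000 reads of its library, scaled with TMM factors. All 5 genes reached 1 CPM in each library, as did 45.7% of all rows. At or above 100 CPM in both were 3 of them, Dlk1, Meg3 and Rian, against 7.85% of all rows. Meg3 alone of the 5 was at or above 1000 CPM in both, against 0.232% of all rows. Since high levels were among the reasons these genes were chosen, nothing is read from these counts.

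The maternally expressed noncoding RNAs took most of the reads of the cluster. Replicate 1 gave 1104 CPM of Meg3 from 13738 reads, and replicate 2 gave 1505 CPM from 18201 reads. Its mean was 1304 ± 283 CPM (SD, n = 2). For Rian the level was 919.0 CPM (replicate 1) and 984 CPM (replicate 2), from 11432 and 11910 reads, with a mean of 952 ± 46.4 CPM (SD, n = 2). Of the reads of the 5 genes, Meg3 held 48.2% of the first library (47.7 to 48.8, an exact 95% Clopper-Pearson interval) and 55.9% of the second (55.4 to 56.5). Rian held 40.2% (39.6 to 40.7) and 36.6% (36.1 to 37.1). Together these 2 noncoding RNAs were thus the bulk of the cluster in either library, and Meg3 was the one whose level differed more between them.

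Mirg, the most distal of the 3 noncoding RNAs, was far less abundant. Its 676 reads in replicate 1 made 54.3 CPM (95% interval 50.3 to 58.6) and its 652 reads in replicate 2 made 53.9 CPM (49.8 to 58.2). The libraries overlapped within counting error. Per kb of annotated exon Rian was 7.28-fold above Mirg in replicate 1 and 7.86-fold in replicate 2.

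**Figure D1:**
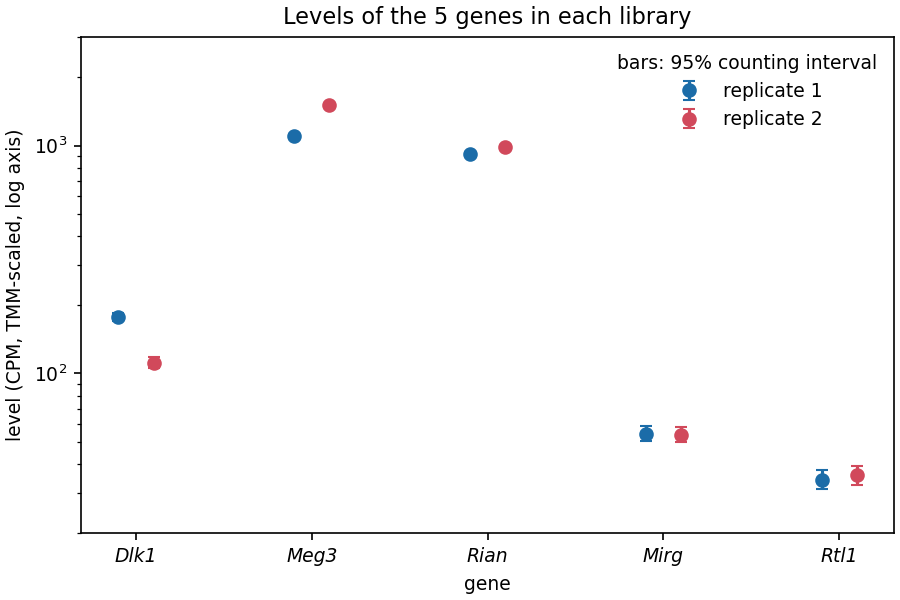
Levels of the 5 genes in replicate 1 (blue) and replicate 2 (red) as TMM-scaled CPM on a log axis, with bars for the exact 95% counting interval, which are often smaller than the points. Meg3 and Rian are at the top, at 1304 and 952 CPM on average, Dlk1 follows at 144 CPM, and the intervals of Mirg and of Rtl1 overlap between the libraries.

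Of the paternally expressed genes, Dlk1 was the abundant one. Its 2201 reads in replicate 1 made 177 CPM (95% interval 170 to 184), and its 1351 reads in replicate 2 made 112 CPM (106 to 118). Replicate 1 was the higher library and the intervals did not overlap. The mean was 144 ± 46.1 CPM (SD, n = 2). Rtl1 had 426 reads or 34.2 CPM in replicate 1 (31.1 to 37.7) and 432 reads or 35.7 CPM in replicate 2 (32.4 to 39.2), and the libraries overlapped. Dlk1 was 6.87-fold above Rtl1 per kb of exon in replicate 1 and 4.16-fold in replicate 2, and 29.1-fold and 17.6-fold with the shortest RefSeq-linked transcripts. Dio3, the deiodinase gene that inactivates thyroid hormone, and its antisense neighbour Dio3os had no read in either library, which by a limit of 3 counts leaves room for 0.241 and 0.248 CPM, counting error only.

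Without strand information in the sources used here, reads of Rtl1 and of the transcript against it cannot be told apart. The row 6430411K18Rik, which RefSeq annotates as a noncoding RNA with the synonym PEG11as and which lies within the Rtl1 exon, had no read in either library. RefSeq lists the same symbol as a synonym of Rtl1. Words of 25 bases that occur in no other gene made up 99.8% of the words of Dlk1, 96.9% for Mirg, 96.1% for Rian, 91.6% for Rtl1 and 86.1% for Meg3. The files do not show how reads of the remaining words were counted.

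Levels of different genes can be set in order only per length, and the length of these genes depends on which transcripts are counted. With all exons of the GENCODE basic set, Meg3 was at 83.2 ± 18.1, Rian at 66.2 ± 3.23, Dlk1 at 30.2 ± 9.64, Mirg at 8.75 ± 0.051 and Rtl1 at 5.50 ± 0.16 CPM per kb (SD, n = 2 each). The order from Dlk1 downward was the same in both libraries. Meg3 and Rian were neighbours that were not apart in a stable way: per kb the ratio of Meg3 to Rian was 1.1-fold and 1.4-fold in replicates 1 and 2, but Meg3 was below Rian, with a mean log2 ratio of -0.41, when the longest basic transcript of each was used. The exons of Meg3 sum to 15684 bases, while its shortest transcript linked to RefSeq has 1896. With that short form Meg3 was at 688 CPM per kb, and Dlk1, with a short form of 1129 bases, at 128 CPM per kb. Dlk1 above Mirg above Rtl1 held under all 4 definitions of length.

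**Figure D2:**
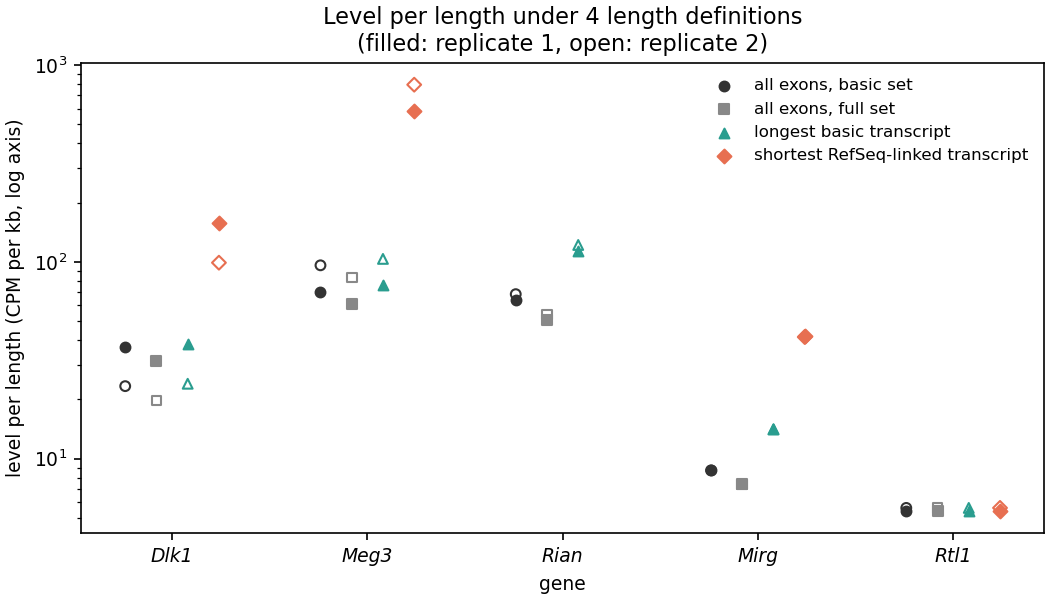
Level per length of the 5 genes in CPM per kb on a log axis, with filled symbols for replicate 1 and open ones for replicate 2, under 4 ways to count exon length (Rian has no transcript linked to RefSeq in the table used). Meg3 and Rian exchange places with the definition, and Rtl1 is lowest under each, at 5.39 and 5.62 CPM per kb.

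Among 12150 rows that had at least 10 reads over both libraries and an annotated length, Meg3 was above 94% of rows per kb of exon in replicate 1 and 96.3% in replicate 2. Rian was above 93.1% and 94%, Dlk1 above 86.1% and 78.1%, Mirg above 54.2% and 53.9%, and Rtl1 above 44.2% and 43.7%. Of 47 rows of imprinted genes, the 5 included, Meg3 ranked at position 6 in replicate 1 and 4 in replicate 2 by CPM per kb. Rian ranked at 8 and 6, Dlk1 at 11 and 13, Mirg at 23 and 21, and Rtl1 at 28 and 24. The cluster thus spans the upper to the middle part of these 47 rows. They include 4 paternally and 6 maternally expressed rows with no read in either library, and without those Mirg and Rtl1 fall below the middle. Set beside Neurog3, whose level was 418 ± 84.5 CPM per kb, Meg3 was lower per kb in both libraries, with a mean log2 ratio of -2.33. This order turned around by CPM without a length correction, to 1.02, and with the short RefSeq-linked transcripts, to 0.72.

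Between the libraries none of the 5 genes differed by over 2-fold, while 48.2% of 13416 genes with at least 10 reads did. That share falls with level. It was 42.9% between 10 and 100 CPM, where Mirg and Rtl1 lie. It was 12.2% between 100 and 1000 CPM, the class of Dlk1 and Rian, and 0% over 1000 CPM, the class of Meg3. The genes of the cluster did not move together. The log2 ratio of replicate 2 over replicate 1 was -0.66 for Dlk1 (95% counting interval -0.76 to -0.57) and 0.45 for Meg3 (0.41 to 0.48). It was 0.10 for Rian (0.06 to 0.14), 0.06 for Rtl1 (-0.14 to 0.26) and -0.01 for Mirg (-0.17 to 0.15). Dlk1 was therefore lower, and Meg3 and by a small margin Rian were higher, in replicate 2 beyond counting error. These directions held with plain totals, DESeq2 size factors and Rn45s left out of the totals. For Mirg and Rtl1 the interval spans 0.

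Differences between the libraries shrink with level, so each gene was placed among genes of like level. Of 6762 genes between 10 and 100 CPM the median absolute log2 ratio was 0.84, and 0.9% had a smaller one than Mirg and 4.3% a smaller one than Rtl1. Of 2269 genes between 100 and 1000 CPM, with a median of 0.39, 73.2% had a smaller one than Dlk1 and 13.9% a smaller one than Rian. Of 58 genes over 1000 CPM, with a median of 0.14, 84.5% had a smaller one than Meg3. Mirg and Rtl1 were thus closely matched for their level, and Dlk1 and Meg3 were in the wider part of their classes.

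**Figure D3:**
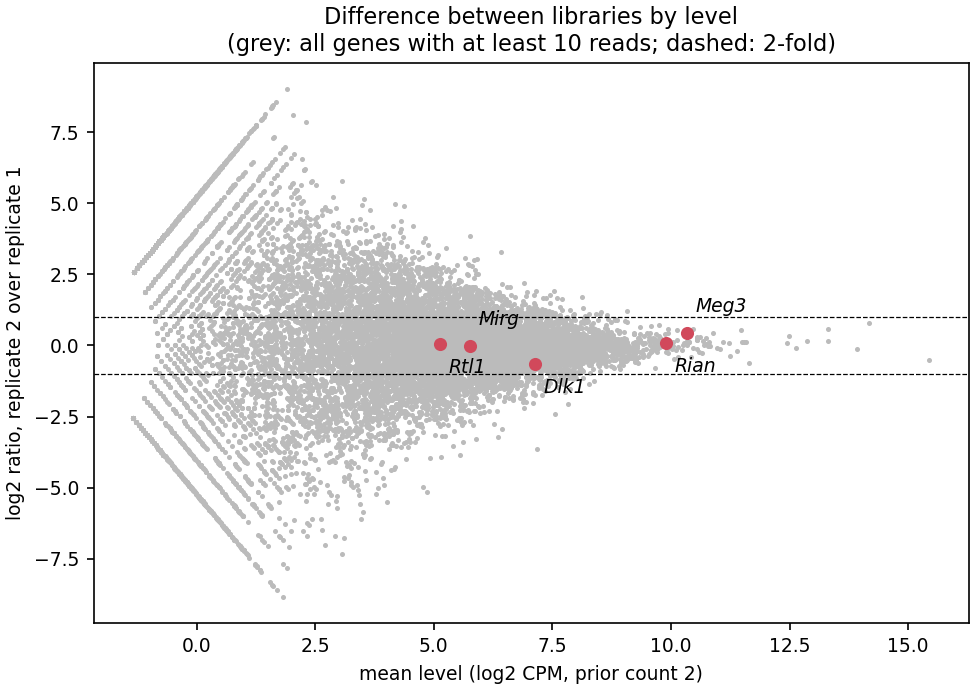
Log2 ratio of replicate 2 over replicate 1 against mean log2 CPM (prior count 2) for 13416 genes with at least 10 reads (grey), with the 5 genes in red and dashed lines at 2-fold. All 5 lie between the lines, Dlk1 at -0.66 and Meg3 at 0.45, and the grey cloud narrows toward high levels.

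The ratios of Meg3 and of Rian to Dlk1 differed between the libraries. Per kb of exon Meg3 was 1.9-fold above Dlk1 in replicate 1 and 4.11-fold in replicate 2, with a mean log2 ratio of 1.48 ± 0.78 (SD, n = 2). Meg3 was the higher of the pair in both libraries and under all length definitions, but the size of the ratio rests on which library is taken. Rian was 1.73-fold and 2.93-fold above Dlk1 per kb. The ratio of the Mirg row to the Rtl1 row, which may hold reads of the transcript against Rtl1, was 1.63-fold and 1.55-fold per kb of exon, and 7.76-fold and 7.38-fold with the RefSeq-linked lengths.

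Dlk1 is known from pancreatic mesenchyme, so markers of other cell types are given beside its difference. Of 17 mesenchymal markers, 7 reached 1 CPM in each library, against 45.7% of all rows. Replicate 1 held 441 CPM of the summed list and replicate 2 held 160 CPM. Of the 15 markers with at least 10 reads, 10 were over 2-fold higher in replicate 1, against 22.3% of all genes tested. Over 2-fold higher in replicate 2 were 3, against 25.9%. Most of these markers lie at low levels, where such differences are common. In either direction, 74% of genes between 1 and 10 CPM and 42.9% between 10 and 100 CPM were over 2-fold apart. The collagen genes Col1a2, Col1a1 and Col3a1 had 122, 77.2 and 83.4 CPM in the first library and 47.0, 27.5 and 18.9 CPM in the second. The other collagen gene of the list, Col6a1, went the opposite way, at 2.09 CPM in the first library and 9.09 CPM in the second. Vim, which encodes vimentin, was at 66.2 and 41.3 CPM. Dcn, which encodes the matrix proteoglycan decorin, was at 53.9 and 2.40 CPM. Twist1, a factor of mesenchymal cells, had no read in either library. Postn and Nkx3-2 had no read in replicate 2, and Thy1 and Barx1 had none in replicate 1. In bulk RNA, fewer cells of a type and less RNA per cell cannot be told apart.

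All 11 endocrine markers reached 1 CPM in each library, against 45.7% of all rows. Their summed level was 37623 CPM (replicate 1) and 52962 CPM (replicate 2). None of them differed by over 2-fold, and the hormone genes Gcg, Ins1 and Ins2 headed the list and made up most of its sum. Of the 11, 6 were higher in replicate 2 and 5 in replicate 1, Neurog3 and Nkx2-2 among the latter at 736 and 791 CPM against 552 and 591 CPM, and the median log2 ratio was 0.10. The summed level of the 8 acinar markers, led by Ctrb1, Pnliprp1 and Clps, was 2384 and 1609 CPM, and that of the 6 ductal markers, led by Krt7, Muc1 and Sox9, was 588 and 559 CPM. The sums were lower for 6 immune markers, led by Laptm5, Itgam and Cd68 (80.0 and 23.3 CPM). The same was so for 9 endothelial markers, led by Cdh5, Eng and Sox17 (29.4 and 9.67 CPM), and 6 neural crest markers (25.5 and 10.3 CPM). Of the 7 lists, 6 summed higher in replicate 1, as Dlk1 did, and the endocrine sum was higher in replicate 2, as Meg3 was. Not all markers of those 6 lists went the same way. With at least 10 reads, 4 of 15 mesenchymal, 1 of 7 acinar and 1 of 5 ductal markers were higher in replicate 2. So were 1 of 3 endothelial (Sox17, at 0 and 6.61 CPM), 1 of 3 neural crest and 1 of 4 immune markers, beside 51.3% of all genes tested. The part of these cell types in the Dlk1 and Meg3 levels was not tested. Foxd3, a factor of neural crest cells, had no read.

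**Figure D4:**
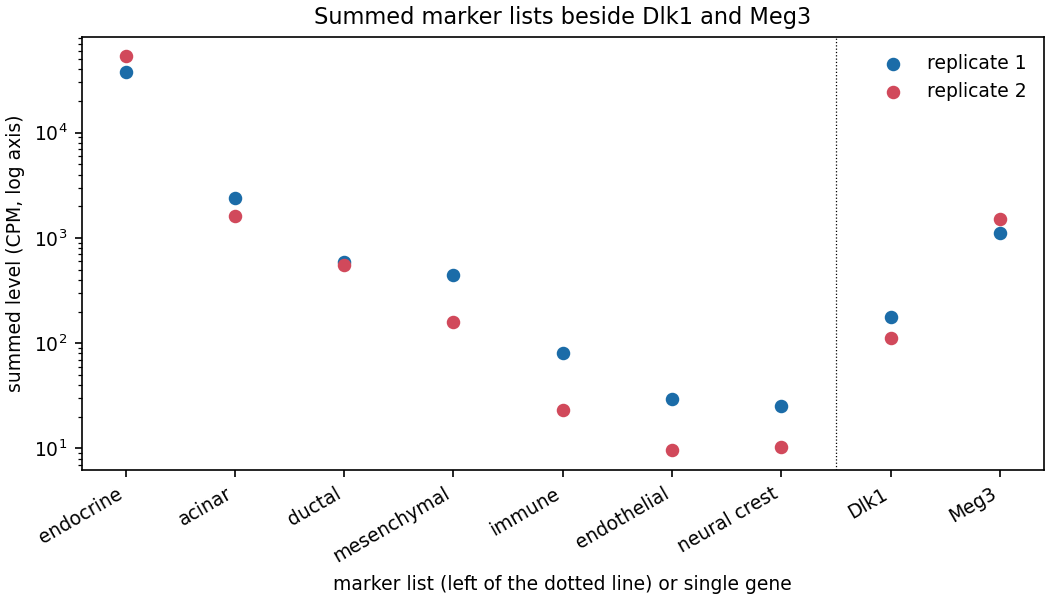
Summed CPM of 7 marker lists in replicate 1 (blue) and replicate 2 (red) on a log axis, with Dlk1 and Meg3 to the right of the dotted line. The mesenchymal sum is 441 and 160 CPM, and Dlk1 is at 177 and 112 CPM.

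The small RNA rows of the cluster held few reads. Of 71 rows that the annotation places from Dlk1 to Dio3, 32 had no read in either library, and the 5 genes held 94.1% of the reads of all 71 in replicate 1 and 96.1% in replicate 2. Of the 58 miRNA gene rows, 16 had at least 10 reads over both libraries, against 8.35% of all miRNA rows in the files. No read was counted for 28 of the 58, against 82.5% of all miRNA rows. A read on such a row does not measure the mature miRNA.

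The reads were unevenly spread along the cluster. The 7 miRNA rows within the Rtl1 exon, those of miR-431, miR-433, miR-127, miR-434, miR-432, miR-3071 and miR-136, had no read in either library. How the counting treated reads that overlap both such a row and Rtl1 is not given in the sources used here. Between Meg3 and Rtl1, Mir665 was at 299 reads in replicate 1 and 190 in replicate 2, Mir540 at 5 and 120, and Mir337 at 0 and 91. Within Rian, Mir1188 was at 374 and 9 reads, Mir341 at 11 and 3, and Mir370 at 0 and 23. Mir665 was thus well covered in both libraries, while the reads of its neighbours and of Mir1188 came almost wholly from 1 library.

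In the stretch from Mir379 to Mirg, 23 miRNA rows held 141 reads in replicate 1 and 134 in replicate 2, and the 14 rows within Mirg held 84 and 115. The rows with at least 10 reads were few. Mir376a was at 23 and 36 reads and Mir667 at 15 and 34, and these were read in both libraries. Mir379 was at 51 and 1, Mir495 at 21 and 2, Mir299 at 17 and 0 and Mir758 at 0 and 41. Within Mirg, Mir377 was at 30 and 6 reads, Mir453 at 3 and 10, Mir134 at 0 and 64 and Mir3072, which was noted after its values were seen, at 46 and 30. The sums of the stretch were alike in the libraries although single rows were not. The row for Mir379, whose 5p arm shares its seed with miR-1193-5p, had reads, while Mir1193 itself, Mir411, Mir494 and Mir410 had none.

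Rian holds 4 snoRNA rows in the files. AF357359 was at 693 reads in replicate 1 and 522 in replicate 2, the most of any small RNA row here, and AF357425 at 74 and 87. AF357426 was at 112 and 9 reads and AF357355 at 0 and 5. How reads that overlap both such a row and Rian were counted is not given in the sources used here. These counts are therefore not levels of the snoRNAs. RNA of 4 genes for proteins of the box C/D particle that binds such snoRNAs was counted too. Of these rows 3 reached 1 CPM in each library, against 45.7% of all rows. They were Nop58 at 91.6 ± 6.72, Nop56 at 54.2 ± 16.4 and Nhp2l1 at 37.8 ± 17.2 CPM (SD, n = 2 each). The remaining row, Fbl, which encodes the methyltransferase fibrillarin, was at 2.41 and 0.91 CPM.

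**Figure D5:**
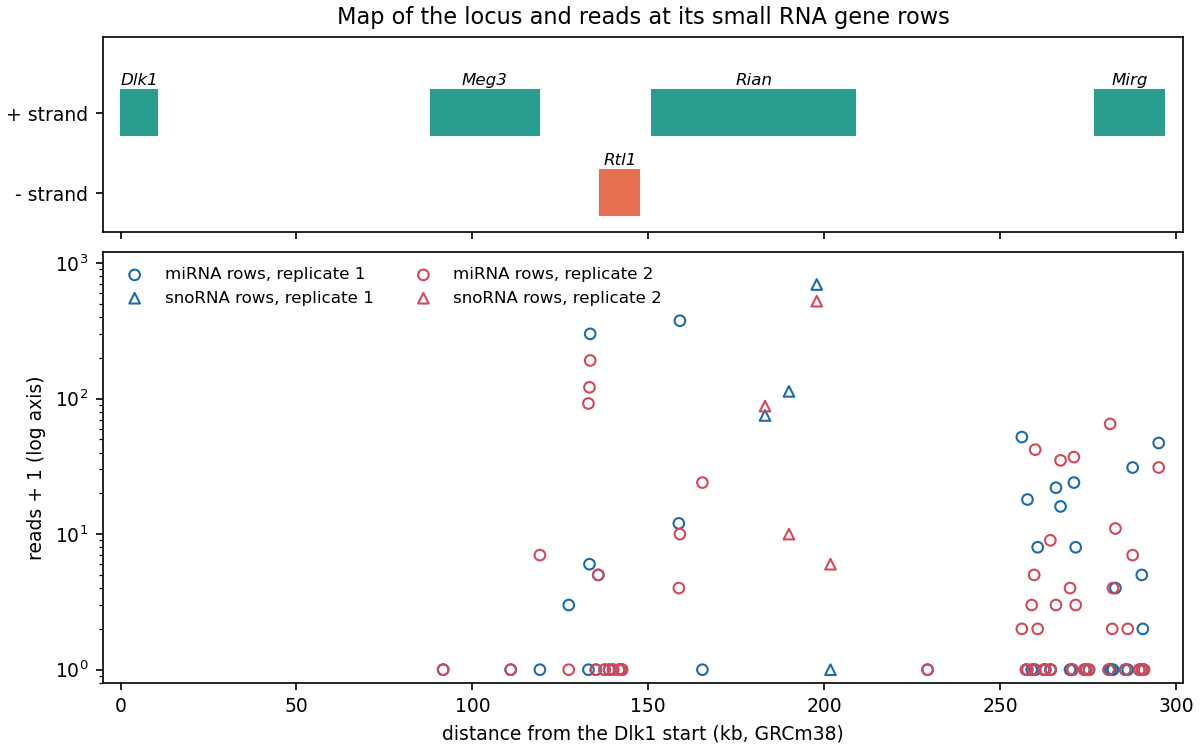
Upper panel: extent and strand of the 5 genes in kb from the annotated start of Dlk1 (GRCm38). Lower panel: reads + 1 on a log axis at each miRNA row (circles) and snoRNA row (triangles) in replicate 1 (blue) and replicate 2 (red), where 1 stands for no read and overlapping symbols hide each other. The rows within Rtl1 are all at no read, and the highest symbols are those of AF357359, Mir1188 and Mir665.

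Genes outside the imprinted cluster on either side were read at levels from 0 to over 1000 CPM. Of 11 neighbouring rows outside the cluster, 9 reached 1 CPM in each library, against 45.7% of all rows. Begain, next to Dlk1, was at 25.4 and 2.56 CPM (replicates 1 and 2), and Wdr25, the next gene out, had 174 and 141 reads. Farther upstream, Wars, a tRNA synthetase gene, was at 57.6 and 99.9 CPM, and Yy1, which encodes a zinc finger factor, at 71.5 and 132 CPM. Evl was at 19.4 and 23.3 CPM, Degs2 at 1.21 and 3.22, Slc25a47 at 0.08 and 2.15, and Slc25a29 at 0 and 2.48 CPM. Beyond Dio3, Ppp2r5c was at 109 and 178 CPM, the dynein heavy chain gene Dync1h1 at 836 and 1137 CPM and the chaperone gene Hsp90aa1 at 116 and 129 CPM. All 11 had at least 10 reads, and 9 were higher in replicate 2, as were 51.3% of all genes tested, while Begain and Wdr25 were higher in replicate 1.

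The starts of Dlk1 and Meg3 are shown because the pair differs most between the libraries and lies on opposite sides of the imprint. Both are RefSeq windows on GRCm38.p6 of 250 bases before to 50 after a start, on the plus strand. The Meg3 window is chr12:109540746-109541045 and the Dlk1 window is chr12:109452573-109452872, and capitals mark matches to the motifs named next. Searched on both strands were the TATA box written as TATAAA and, overlapping with it, as the longer form TATATAA, the cAMP response element TGACGTCA, and the CCAAT box.
Meg3: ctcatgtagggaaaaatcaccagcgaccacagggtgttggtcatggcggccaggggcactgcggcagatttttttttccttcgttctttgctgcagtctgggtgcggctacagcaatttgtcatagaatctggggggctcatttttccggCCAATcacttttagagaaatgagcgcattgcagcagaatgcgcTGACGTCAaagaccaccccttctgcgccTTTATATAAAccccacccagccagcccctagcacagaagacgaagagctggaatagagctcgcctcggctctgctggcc
Dlk1: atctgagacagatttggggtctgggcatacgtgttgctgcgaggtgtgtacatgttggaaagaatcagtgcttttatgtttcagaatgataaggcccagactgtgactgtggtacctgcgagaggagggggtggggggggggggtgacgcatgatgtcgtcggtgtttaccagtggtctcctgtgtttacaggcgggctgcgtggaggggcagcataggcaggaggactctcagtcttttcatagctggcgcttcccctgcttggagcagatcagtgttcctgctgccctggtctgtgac
The Meg3 window holds the cAMP response element at 57 to 50 bases before the start, overlapping matches to TATAAA and TATATAA between 29 and 20 bases before it, and CCAAT at 100 to 96 bases before it. Of 32851 such windows, 1.79% hold TGACGTCA, 13.6% TATAAA, 3.24% TATATAA and 37.4% CCAAT. The Dlk1 window holds none of these letters, and neither does a further RefSeq window of Meg3 downstream. CG pairs number 13 in the Meg3 window and 9 in the Dlk1 window, against a median of 7 over all windows. A match describes the letters and shows no binding.

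Of 14 rows of factors that write, guard or remove DNA methylation at imprints, 10 reached 1 CPM in each library, against 45.7% of all rows. The highest were the DNA methyltransferase Dnmt3a at 787 ± 38.5 CPM and the methylcytosine dioxygenases Tet3 at 450 ± 36.2 and Tet2 at 240 ± 41.7 CPM (SD, n = 2 each). Zfp57, a zinc finger protein that guards imprints in the embryo, and Dppa3 had no read, and Dnmt3l, a cofactor of Dnmt3a, had 1 and 0 reads. The median log2 ratio of the 11 with at least 10 reads was -0.11, beside 0.04 over all genes tested.

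Of 19 genes of Notch ligands, receptors and effectors, the family to which Dlk1 is related, 15 reached 1 CPM in each library. The share over all rows was 45.7%. The coactivator Maml1 was at 153 ± 1.41 CPM and the sheddases Adam10 and Adam17, of which Adam17 is known to release the soluble form of Dlk1, were at 124 ± 12.9 and 54.6 ± 42.0 CPM (SD, n = 2 each). Dlk2, the closest relative of Dlk1, had no read in replicate 1 and 0.08 CPM in replicate 2, a single read. Dlk1 was thus read where its relative was at the limit of detection. Of the retrotransposon-derived genes akin to Rtl1, 3 of 7 rows reached 1 CPM in each library, near the 45.7% of all rows. These were Peg10 at 9553 and 10738 CPM, Rgag4 at 57.6 and 103 CPM and Ldoc1l at 10.2 and 37.9 CPM. Ldoc1, Rgag1 and Zcchc16 had no read.

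Of 10 miRNA processing genes, 9 reached 1 CPM in each library, against 45.7% of all rows. The Argonaute genes Eif2c2 and Eif2c1 were at 460 ± 113 and 252 ± 51.2 CPM (SD, n = 2 each), and Dicer1 was at 333 and 347 CPM. All 7 genes of the Polycomb complex PRC2, with which Meg3 is reported to bind, reached 1 CPM in each library, beside the same 45.7%. They were led by Jarid2 at 340 ± 77.8, Rbbp7 at 160 ± 5.75 and Rbbp4 at 121 ± 18.7 CPM. Of the MEF2 factors, which are known to drive the Mirg miRNA cluster in neurons, Mef2d was at 155 ± 41.2 and Mef2a at 89.2 ± 5.68 CPM, Mef2c was at 0 and 1.32 CPM, and Mef2b had no read.

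The lists of imprinted genes leave out the 5 genes but hold Dio3. On them 19 of 25 paternally expressed and 10 of 17 maternally expressed rows reached 1 CPM in each library, against 45.7% of all rows. The median log2 ratio of replicate 2 over replicate 1 was 0.11 for 21 paternally expressed and -0.40 for 11 maternally expressed genes with at least 10 reads. Over all genes tested it was 0.04. The medians depended on the filter. With no filter on low counts both lists were at 0.00. With at least 100 reads the paternal list was at 0.06 and the maternal list at -0.77. Peg10, Peg3 and Nnat headed the paternal list at 10145 ± 838, 3051 ± 182 and 844 ± 60.6 CPM. Igf2r, Ppp1r9a and H19 headed the maternal one at 529 ± 104, 257 ± 34.7 and 249 ± 132 CPM (SD, n = 2 each). The growth factor gene Igf2 and the noncoding RNA H19, a pair arranged like Dlk1 and Meg3, had 617 and 342 CPM in the first library and 426 and 155 CPM in the second, so both were lower in replicate 2, unlike Dlk1 and Meg3, which differed in opposite directions. No read was counted for Snrpn, Snurf, Peg12 and Dio3 of the paternal list and for Phlda2, Ascl2, Slc22a18, Htr2a, Slc22a2 and Slc22a3 of the maternal one.

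The genes nearest to each of the 5 in log2 CPM over the 2 libraries were found by Euclidean distance, which with 2 libraries measures only a like level and a like difference. Nearest to Dlk1 were Gnptg, Tial1 and Zfp148, at distances of 0.01, 0.01 and 0.02, and among imprinted genes Mest, at 0.55. Nearest to Meg3 were Rpl4, Calm2 and Pdia3, at 0.21, 0.22 and 0.24, and Nnat, at 0.89. Nearest to Rian were Tox3, Pclo and Ddx17, at 0.11, 0.17 and 0.20, and Nnat, at 0.25. Mirg lay nearest to Parg, Rnh1 and Smarcal1, at 0.01, 0.02 and 0.03, and to Cdkn1c, at 0.18. Rtl1 lay nearest to Plcl1, Dimt1 and Cpeb2, at 0.01, 0.03 and 0.05, and to Impact, at 0.33. None of the imprinted genes nearest to a member was from the cluster itself, since its other genes were left out of that search.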

How the data were processed

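Per the labels' protocols, GFP-positive cells were sorted from dissociated whole pancreata, lysed and frozen, and RNA was column-extracted. The deposited values are raw read counts per gene symbol, whole numbers in 1 file per library. Build mm9 and the tools TopHat2 2.0.4, Cufflinks 2.0.2, cutadapt, FastQC and DESeq are listed in the submitters' processing notes. Not given in the sources used here are the counter, annotation, strand setting and treatment of multiply mapped reads.

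Counts were scaled with TMM factors (edgeR 4.0.16, R 4.3.3), which were 0.9956 and 1.0044. Log2 ratios were taken over genes with 10 or more reads, after adding a prior count of 2. Detection meant 1 CPM in each library. Intervals are exact Clopper-Pearson at 95% and, like the limit of 3 counts for a count of 0, hold for counting error alone, as no molecular identifiers are named. Exon lengths are from GENCODE M21 (GRCm38), which matched 20882 symbols, 89.7%. Sequences are RefSeq's, on GRCm38.p6. No significance test was made. The scaling and log2 ratios were checked on simulated counts with counting error alone (Poisson). These lack the wider spread between the 2 libraries, so the check covers the calculation only.

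The genes and the 18 lists were chosen with earlier results of these data known. Named are, by rule, the 5 genes, miRNA and neighbour rows with at least 10 reads, up to 3 genes with the highest mean and those with no read of each other list, and the nearest genes. Genes named outside this rule, among them Col3a1, Col6a1, Dcn, Igf2, Dlk2, Dnmt3l, Fbl, Mef2c, Neurog3, Nkx2-2 and markers with no read in 1 library, were chosen after their values were seen. Not every gene under the rule is reported here. Alternatives were plain totals, DESeq2 1.42.0 size factors, Rn45s left out, other limits, filters, prior counts and lengths, and leaving out each replicate.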

Additional observations from a re-analysis of the deposited data

How the results depend on the processing

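The lengths of the longest basic transcript and of the shortest RefSeq-linked transcript were chosen after the data were seen. Of 373 alternative values, 342 stayed within a limit set by the spread between replicates, by counting error or by 1.5 times a count. Part of these could not have come out otherwise. Leaving out either replicate cannot move a level or a ratio between genes past the SD, and rescaling does not change ratios within a library. The count is therefore no measure of stability. With Rn45s left out of the totals Mirg was at 56.7 and Rtl1 at 36.6 CPM. By CPM without length correction the mean log2 ratio was 3.20 for Meg3 over Dlk1, 4.14 for Rian over Mirg, 2.76 for Rian over Dlk1 and, turned around, 1.02 for Meg3 over Neurog3. With the full annotation it was 2.81 for Rian over Mirg and 0.43 for Mirg over Rtl1. With the longest transcript it was -0.41 for Meg3 over Rian, turned around, 3.05 for Rian over Mirg, 1.36 for Mirg over Rtl1, 1.09 for Dlk1 over Mirg and 1.96 for Rian over Dlk1. With the shortest RefSeq-linked transcript it was 2.45 for Meg3 over Dlk1, 4.50 for Dlk1 over Rtl1, 2.92 for Mirg over Rtl1 and, turned around, 0.72 for Meg3 over Neurog3. These changes follow from the lengths used.

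With a limit of 5 CPM the count of rows detected was 1 for the miRNA list (3 at 1 CPM), 4 for the mesenchymal, 0 for the endothelial (1 at 1 CPM), 1 for the neural crest (2) and 1 for the immune list (3). Without each replicate in turn it was 8 and 8 for the miRNA list, 9 to 13 for the mesenchymal list and 2 and 2 for the endothelial list. With no filter on low counts the median log2 ratio was 0.43 for endothelial markers (-2.73 with the filter), 0.00 for neural crest markers (-1.45) and 0.17 for the retrotransposon-derived genes (0.84), and the cause was not tested. With at least 100 reads, 2254 genes were over 2-fold higher in replicate 2, against 3471 with at least 10 reads. For replicate 1 the counts were 2110 and 2990. Fewer genes pass the higher limit, so these counts are not shares of the same set.

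No paired analysis was possible because there is only 1 group. Single miRNA rows differed between libraries of nearly equal depth, and the cause was not tested.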
